A study of Mus musculus with 22 samples.

Results

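The results below concern 10 named genes of the activin and TGF-beta system: the ligands Inhba, Inhbb, Tgfb1, Tgfb2 and Tgfb3, the ligand-binding antagonist Fst, the receptors Tgfbr1 and Tgfbr2, and the inhibitory SMADs Smad6 and Smad7. They were chosen by symbol, and 9 of the 10 were among the 11208 genes of the deposited expression table. Inhbb was not analysed here. Polyadenylated RNA had been sequenced from NIH/3T3, an immortalised mouse embryonic fibroblast line that carried either a stably integrated doxycycline-inducible E2F1 construct (the E2F1 line) or the empty vector, labelled EV (the EV line). The labels do not state the promoter of the construct, or whether each line is a clone or a pool. All cells, controls included, were starved in 0.25% serum for 48 h. The 22 libraries formed 11 groups of 2: the E2F1 line at 0, 2, 6 and 12 h of 500 ng/ml doxycycline, the EV line under the same schedule of doxycycline, and EV cells given 10% serum for 2, 6 or 12 h. E2F1 is a transcription factor that drives genes of S phase entry, and serum is the classical stimulus that brings resting fibroblasts back into the cell cycle.

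Activins and TGF-betas are secreted dimers that bind a type II receptor kinase, which then phosphorylates a type I receptor kinase. The type I receptors for activin and TGF-beta phosphorylate SMAD2 and SMAD3, which enter the nucleus with SMAD4 and regulate transcription. Follistatin, the product of Fst, traps activin outside the cell, while SMAD6 and SMAD7 act inside it as negative feedback on the receptors. In fibroblasts this pathway is known for its control of matrix production, contractility and proliferation.

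Values are the authors' normalized counts. Gene positions are GRCm38. Log2 changes are on the scale of log2(normalized count + 1), given ± standard error (SE), with 95% intervals where the text says so. Adjusted p-values are limma's, with Benjamini-Hochberg adjustment over all 11208 genes, and "rose" and "fell" are used for an adjusted p of at most 0.05. Serum and EV doxycycline changes share the 2 EV 0 h libraries, and every E2F1 change shares the 2 E2F1 0 h libraries. No label says that the replicates of a group were separate cultures, so p-values measure only the spread between these libraries, which may be technical. As these are bulk samples, fewer expressing cells and less RNA per cell cannot be told apart.

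Total normalized counts per library ran from 34014608 to 37401882 without serum and up to 46057140 with it, highest at 2 h of serum. E2f1 itself, the check of the construct, stood at 1703 and 1637 in the E2F1 line at 0 h, at 1535 and 1755 after 2 h, at 3806 and 3602 after 6 h and at 2683 and 2845 after 12 h. Whether reads of the construct are counted there was not tested. The gene rose at 6 h (log2 change 1.15 ± 0.11, limma adjusted p = 9.61e-08) and 12 h, and at 2 h the change was -0.02 ± 0.11. All 10 fibroblast markers looked up were in the table, and the 13 epithelial, immune, endothelial and myogenic ones were not analysed here. Over 16 genes whose starved level was at least 8 times higher with the E2F1 construct than with the empty vector, the EV libraries at 2 h of doxycycline stood 0.165 and 0.166 of the way from the EV to the E2F1 level, and those at 2 h of serum 0.108 and 0.182. The other EV libraries stood at 0.02 or less. The E2F1 libraries stood at 0.909 and 1.09 at 0 h, at 0.791 and 0.767 at 2 h, at 0.838 and 0.834 at 6 h, and at 0.666 and 0.771 at 12 h. The 0 h means of the lines set both ends of this scale and also picked the 16 genes. The 0 h values thus centre on the ends by construction, and the part of that choice in the later values was not tested. The part of these shifts in the results, those at 2 h included, was not tested.

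Serum moved nearly all of the 9 genes. At 2 h, 7 rose and 1 fell, where 70.9% of all genes passed the test. At 6 h, 6 rose and 1 fell against a background of 67.5%, and at 12 h, 6 rose and 3 fell against 65.7%. Since most genes of the table passed as well, these counts say little about the 9 genes by themselves. The members' median log2 change at 2 h of serum was 1.32, beside 0.03 for all genes. These values depend in part on scaling: with library totals made equal, the median of all genes moved to -0.35 at 2 h of serum, -0.18 at 6 h of serum and -0.15 at 6 h of E2F1. With E2F1 the calls were fewer at each time. None passed at 2 h (2 had an unadjusted p under 0.05), where 1.86% of all genes passed. At 6 h, 2 rose and 3 fell against a background of 51.7%, with a median of -0.04 beside -0.03 for all genes. At 12 h, 2 rose and 5 fell against 61.5%, with a median of -0.48 beside -0.02 for all genes. Doxycycline alone in the EV line moved 1 member at 2 h (background 7.35%), none at 6 h (background 0.134%, 2 members with an unadjusted p under 0.05) and 1 at 12 h (background 4.17%).

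**Figure D1:**
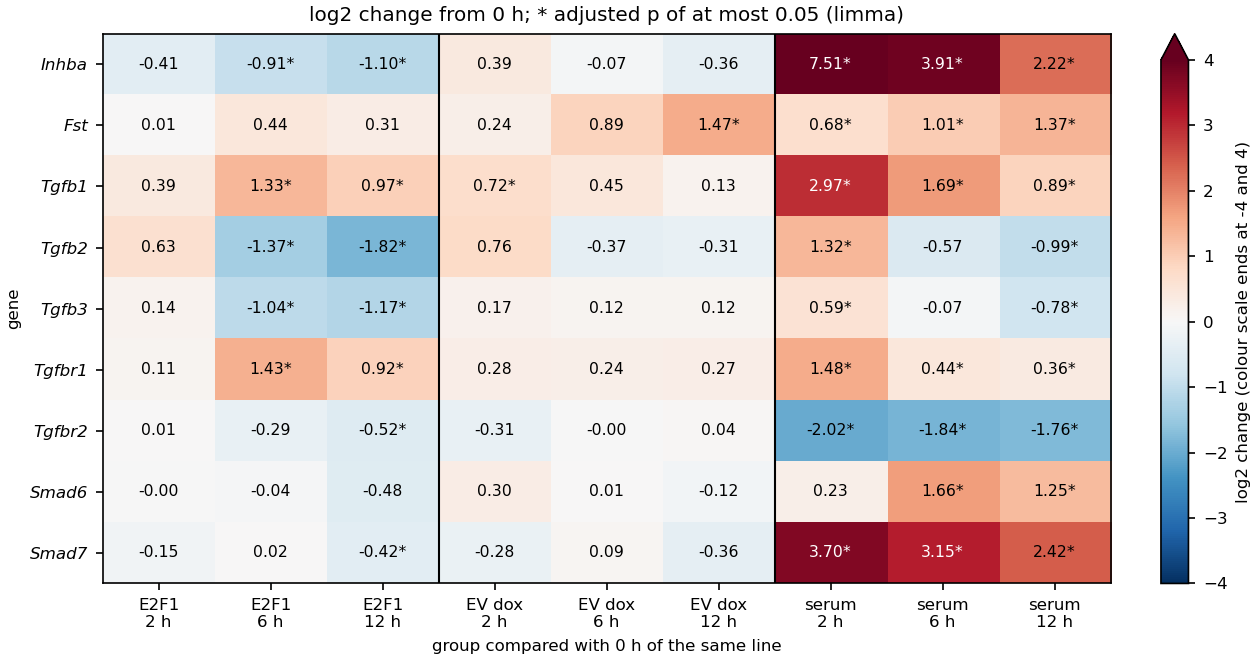
Log2 change of each of the 9 genes (rows) from 0 h of the same line in 9 comparisons (columns: E2F1 line, EV line with doxycycline, EV line with serum). Each cell prints the change and a star marks an adjusted p of at most 0.05. Inhba, Smad7 and Tgfb1 reach 7.51, 3.70 and 2.97 at 2 h of serum, beyond every change in the doxycycline columns, and Tgfb1 is starred as higher at 6 and 12 h of both E2F1 and serum, as is Tgfbr1, whose serum stars at 6 and 12 h depend on the scaling.

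Inhba (chr13:16011851-16031621, + strand) encodes the inhibin beta A chain, which forms activin A as a homodimer. Its normalized count was 678 and 723 in the EV line at 0 h and 131085 and 123956 after 2 h of serum. After 6 h of serum it was 10089 and 10955, and after 12 h 3168 and 3365. The 6 serum libraries were above all 16 libraries without serum, which ran from 428 to 1182 with a median of 713. The log2 change was 7.51 ± 0.18 at 2 h (95% interval 7.13 to 7.88, a 182-fold rise, limma adjusted p = 1.09e-15), 3.91 ± 0.18 at 6 h (15.0-fold) and 2.22 ± 0.18 at 12 h (4.66-fold). Inhba thus peaked at the first time sampled. The step from 2 to 6 h was a fall by 3.60 ± 0.18 on the log2 scale, and from 6 to 12 h by a further 1.69 ± 0.18.

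With E2F1 the same gene went the other way. Its count in the E2F1 line was 1182 and 1093 at 0 h, 803 and 905 at 2 h, 727 and 501 at 6 h, and 655 and 428 at 12 h. Both replicates were lower at each later time than both at 0 h. Inhba fell by 0.91 ± 0.18 on the log2 scale at 6 h (limma adjusted p = 0.000361) and by 1.10 ± 0.18 at 12 h (3.57e-05), while the 2 h change of -0.41 ± 0.18 did not pass (0.28). Starting levels differed: Inhba was 0.70 ± 0.18 higher on the log2 scale in starved E2F1 cells than in starved EV cells (limma adjusted p = 0.0139). At 12 h the E2F1 libraries (655 and 428) overlapped those of the EV line with doxycycline (606 and 493).

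Fst (chr13:114452290-114458951, - strand) encodes follistatin, the antagonist that binds activin. In the EV line it stood at 317 and 170 at 0 h, the widest replicate gap of any member in that group relative to its level. With serum it was 350 and 399 at 2 h, 526 and 419 at 6 h, and 573 and 631 at 12 h. With doxycycline alone it was 297 and 252 at 2 h, 516 and 362 at 6 h, and 787 and 529 at 12 h, so that without serum, too, both 12 h libraries were above both at 0 h. Against EV 0 h the log2 change in serum was 0.68 ± 0.26 at 2 h (limma adjusted p = 0.0265), 1.01 ± 0.26 at 6 h (0.00235) and 1.37 ± 0.26 at 12 h (0.000176), and with doxycycline alone 1.47 ± 0.26 at 12 h (0.00418). Set against the EV doxycycline libraries of the same time, the serum change was 0.45 at 2 h, 0.12 at 6 h and -0.10 at 12 h, and none passed. Without EV 0 h replicate 2, the library at 170, the serum changes at 2 and 6 h were 0.24 and 0.57 and no longer passed, and the doxycycline change at 12 h was 1.02 and did not pass. The 2 h serum change was also lost with equal totals (0.31) and without serum 2 h replicate 2 (0.59), and the doxycycline change without EV 12 h replicate 1 (1.18).

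With E2F1, Fst read 350 and 456 at 0 h, 477 and 338 at 2 h, 551 and 537 at 6 h, and 458 and 536 at 12 h. Its log2 change was 0.44 ± 0.26 at 6 h and 0.31 ± 0.26 at 12 h, and neither passed (limma adjusted p = 0.165 and 0.316). The 6 h value passed with only the groups compared (limma adjusted p = 0.0411). It was 0.25 without E2F1 0 h replicate 1 and 0.63 without replicate 2, and the 12 h value was 0.12 and 0.50 in the same fits and 0.20 without E2F1 12 h replicate 2, none of which passed.

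The balance of ligand to antagonist was followed within each library as the ratio of Inhba to Fst counts per kilobase of exon, a ratio that does not depend on scaling between libraries. In the EV line it was 1.54 and 3.05 at 0 h. Serum brought it to between 223 and 269 at 2 h, to between 13.8 and 18.8 at 6 h and to between 3.83 and 3.97 at 12 h. With doxycycline alone it ended at 0.553 and 0.669 at 12 h, and with E2F1 it went from between 1.72 and 2.43 at 0 h to between 0.573 and 1.03 at 12 h. The ratio was thus at least 3.83 in all serum libraries, and at 12 h without serum it lay between 0.553 and 1.03 in both lines. These ratios are given as descriptions with no test.

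**Figure D2:**
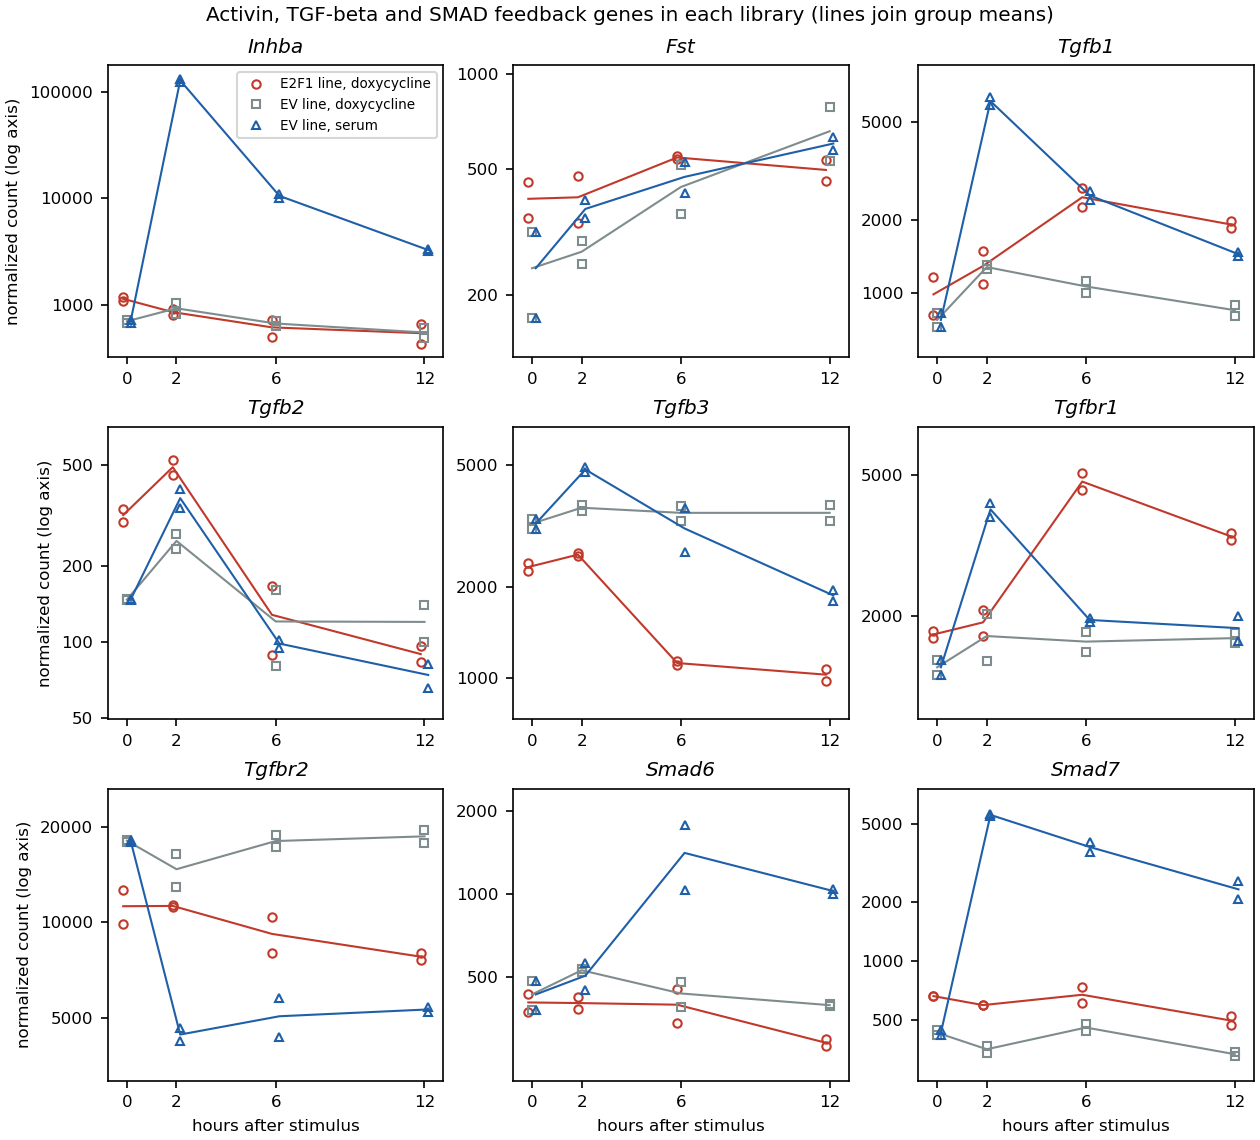
Normalized count (log axis) of the 9 genes in each library against hours after the stimulus, for the E2F1 line with doxycycline (circles), the EV line with doxycycline (squares) and the EV line with serum (triangles). Lines join the means of the 2 replicates, and the EV 0 h libraries are drawn for both EV series. Inhba, Tgfb1 and Smad7 peak at 2 h of serum, Smad6 at 6 h, and Tgfbr2 stays between 4239 and 5772 in all serum libraries.

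The 3 TGF-beta ligand genes behaved differently from one another. Tgfb1 (chr7:25687002-25705077, + strand), the most widely studied isoform, was 730 and 827 in the EV line at 0 h and 6313 and 5854 at 2 h of serum, above all libraries without serum (highest 2686). It was 2608 and 2409 at 6 h and 1414 and 1473 at 12 h of serum. The log2 change was 2.97 ± 0.15 at 2 h (7.82-fold, limma adjusted p = 6.52e-12), 1.69 ± 0.15 at 6 h and 0.89 ± 0.15 at 12 h, and both later steps were falls. Tgfb1 also rose in the E2F1 line with doxycycline: its counts were 1161 and 819 at 0 h, 1093 and 1492 at 2 h, 2686 and 2245 at 6 h, and 1973 and 1843 at 12 h. That is a log2 change of 1.33 ± 0.15 at 6 h (2.52-fold, limma adjusted p = 7.68e-07) and 0.97 ± 0.15 at 12 h (1.96-fold, 2.25e-05), after 0.39 ± 0.15 at 2 h (0.222). Part of this was shared with doxycycline alone, where Tgfb1 rose by 0.72 at 2 h in the EV line. The difference between the lines was 0.88 at 6 h and 0.83 at 12 h. The libraries of E2F1 and of serum overlapped at 6 h, and at 12 h both E2F1 libraries were above both serum ones.

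Tgfb2 (chr1:186622792-186705989, - strand) was the least abundant member, with a mean of 34.7 counts per kilobase of exon over all libraries. It read 148 and 146 in the EV line at 0 h, 401 and 340 at 2 h of serum, 95 and 102 at 6 h, and 66 and 82 at 12 h. It rose at 2 h (log2 change 1.32 ± 0.31, limma adjusted p = 0.000831), did not pass at 6 h (-0.57 ± 0.31, 0.106, though with equal totals -0.79 passed) and fell by 0.99 ± 0.31 at 12 h (0.00878). Against the EV doxycycline libraries of the same time, 234 and 268 at 2 h, the serum rise was 0.56 and did not pass, and the 12 h fall was 0.68 on the log2 scale and did not pass. Quantile normalization (-0.53) and the absence of serum 12 h replicate 1 (-0.83) also ended the 12 h call. With E2F1, Tgfb2 was 337 and 298 at 0 h, 458 and 525 at 2 h, 89 and 167 at 6 h, and 83 and 96 at 12 h. The 2 h value was higher by 0.63 ± 0.31 and did not pass (0.352), and the gene then fell by 1.37 ± 0.31 at 6 h (limma adjusted p = 0.00118) and by 1.82 ± 0.31 at 12 h (5.5e-05). At 2 h all 3 stimuli had higher Tgfb2 libraries than their 0 h groups, and at 12 h all were lower.

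Tgfb3 (chr12:86056745-86079041, - strand) was the most abundant of the 3 isoforms at rest, with 3341 and 3097 counts in the EV line at 0 h. Serum brought it to 4738 and 4944 at 2 h, 2588 and 3617 at 6 h, and 1799 and 1944 at 12 h. The log2 change was 0.59 ± 0.12 at 2 h (limma adjusted p = 0.000186), -0.07 ± 0.12 at 6 h (0.599) and -0.78 ± 0.12 at 12 h (1.23e-05). The 2 h rise depends on how libraries are scaled: it was 0.22 under quantile normalization and 0.21 with equal totals, and neither passed. At 6 h the same 2 scalings gave falls by 0.28 and 0.29 that passed. Without serum 6 h replicate 2 the 6 h fall was 0.31 and passed, and without replicate 1 the value was 0.17. E2F1 lowered Tgfb3 in both replicates: it was 2392 and 2245 at 0 h, 2517 and 2576 at 2 h, 1142 and 1105 at 6 h, and 981 and 1077 at 12 h. It fell by 1.04 ± 0.12 on the log2 scale at 6 h (limma adjusted p = 6.63e-07) and by 1.17 ± 0.12 at 12 h (1.15e-07), while the EV line with doxycycline stayed between 3276 and 3709.

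The isoforms changed by unequal amounts, and their mix shifted. Tgfb1 and Tgfb3 moved in opposite directions at 6 and 12 h of E2F1 and at 12 h of serum. At 2 h of serum all 3 rose on the deposited scale. Per kilobase of exon, Tgfb3 made up 82.9 and 85.3% of the 3 ligand transcripts in the starved EV line and Tgfb1 12.5 and 14.8%. After 2 h of serum Tgfb1 made up between 43.3 and 46%, and after 12 h between 33.2 and 34.1%. With E2F1 the Tgfb1 share went from between 18.5 and 23.1% at 0 h to between 55.6 and 60.1% at 6 h and 52.2 to 56.3% at 12 h. On this measure Tgfb1 passed Tgfb3 (between 38.1 and 40.8% at 6 h). Exon length here is that of all annotated exons of a gene. In counts not divided by it, Tgfb1 was above Tgfb3 at 2 h of serum as well (6313 and 5854 beside 4738 and 4944). In the EV line with doxycycline the Tgfb1 share stayed between 13.8 and 18.6%. Both E2F1 libraries at 6 and 12 h were thus above every serum library in their Tgfb1 share, for which no test was made.

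**Figure D3:**
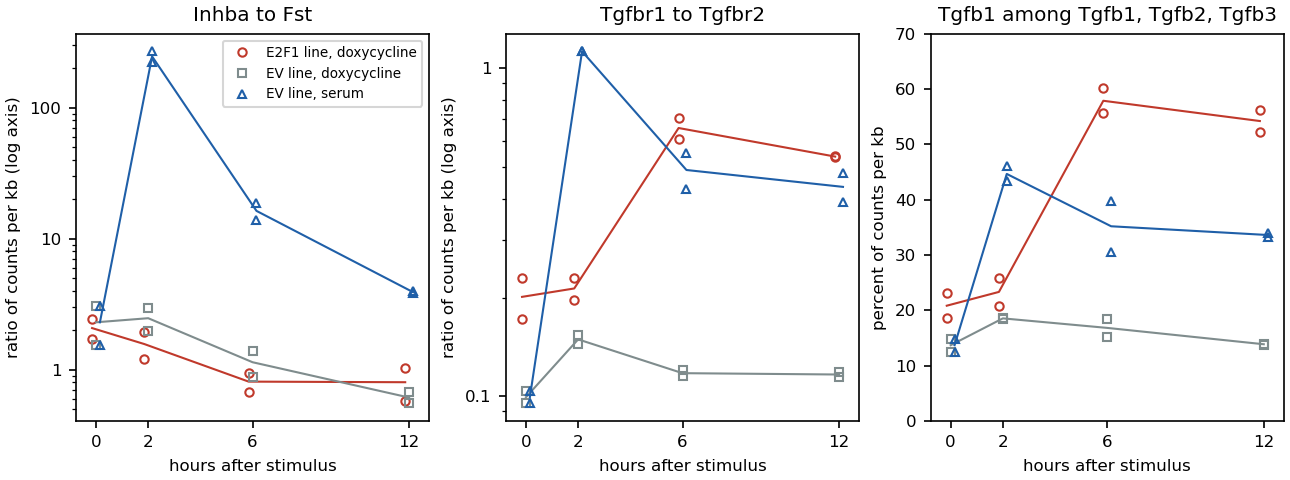
Ratios within each library from counts per kilobase of exon, against hours after the stimulus: Inhba to Fst (left, log axis), Tgfbr1 to Tgfbr2 (middle, log axis) and Tgfb1 as a percent of Tgfb1, Tgfb2 and Tgfb3 together (right). Points are libraries and lines join group means, with the EV 0 h libraries drawn for both EV series. The Inhba to Fst ratio reaches 223 to 269 at 2 h of serum, and the Tgfb1 share is highest, at 55.6 to 60.1%, at 6 h of E2F1.

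The receptors moved in opposite directions in serum. Tgfbr1 (chr4:47353222-47414931, + strand) encodes the type I TGF-beta receptor, ALK5. It was 1501 and 1364 in the EV line at 0 h, 3811 and 4175 at 2 h of serum, 1972 and 1923 at 6 h, and 1999 and 1694 at 12 h. It rose by 1.48 ± 0.13 at 2 h (2.79-fold, limma adjusted p = 6.11e-09), by 0.44 ± 0.13 at 6 h (0.00452) and by 0.36 ± 0.13 at 12 h (0.0168). The later rises are weak: against the EV doxycycline libraries of the same time they were 0.21 and 0.09 and did not pass. Equal totals gave 0.23 at 6 h, and at 12 h quantile normalization gave 0.23, the fit without EV 0 h replicate 2 gave 0.29 and that without serum 12 h replicate 1 gave 0.24, none of which passed. With E2F1 the rise passed at 6 and 12 h: Tgfbr1 was 1732 and 1812 at 0 h, 2083 and 1752 at 2 h, 5051 and 4515 at 6 h, and 3427 and 3272 at 12 h. It rose by 1.43 ± 0.13 at 6 h (2.70-fold, limma adjusted p = 3.29e-08) and by 0.92 ± 0.13 at 12 h (1.89-fold, 5.37e-06), and the 6 h libraries were above all other libraries of the series.

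Tgfbr2 (chr9:116084293-116175360, - strand) encodes the type II receptor that binds TGF-beta first. At 18165 and 17940 in the EV line at 0 h it was the most abundant member per kilobase of exon. Serum took it to 4239 and 4647 at 2 h, 5772 and 4371 at 6 h, and 5240 and 5416 at 12 h, below all 16 libraries without serum (lowest 7602). It fell by 2.02 ± 0.14 on the log2 scale at 2 h (4.07-fold, limma adjusted p = 4.01e-10), by 1.85 ± 0.14 at 6 h and by 1.76 ± 0.14 at 12 h (3.39-fold). Neither later step passed the test, with log2 changes of 0.18 ± 0.14 from 2 to 6 h (95% interval -0.12 to 0.47, limma adjusted p = 0.311) and 0.08 ± 0.14 from 6 to 12 h (95% interval -0.21 to 0.38, 0.663). With equal totals the first of these steps was a rise of 0.34 that passed (limma adjusted p = 0.0469). Without serum 6 h replicate 1 it was -0.022, and the second was -0.12 without serum 6 h replicate 2. The E2F1 line held 12599 and 9878 at 0 h, 11360 and 11165 at 2 h, 10376 and 8025 at 6 h, and 8002 and 7602 at 12 h. The log2 change was -0.29 ± 0.14 at 6 h (0.0925) and -0.52 ± 0.14 at 12 h (0.00391). The 12 h fall did not pass without E2F1 0 h replicate 1 (-0.34). The 6 h value passed under quantile normalization (-0.53) and equal totals (-0.41), and without E2F1 6 h replicate 1 (-0.48) or E2F1 0 h replicate 2 (-0.47).

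Within libraries, the ratio of Tgfbr1 to Tgfbr2 per kilobase of exon was 0.0953 and 0.104 in the starved EV line and 1.13 in both libraries at 2 h of serum. It was between 0.392 and 0.551 at 6 and 12 h of serum. The E2F1 line went from between 0.172 and 0.230 at 0 h to between 0.610 and 0.705 at 6 h and 0.537 to 0.539 at 12 h. Both stimuli thus moved the receptor mix toward Tgfbr1, in serum mainly through less Tgfbr2 after 2 h and with E2F1 mainly through more Tgfbr1.

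The promoters of 4 members whose RNA moved are printed because their base composition and core elements differ: Inhba with the largest serum rise, Tgfb1 and Tgfbr1, which rose with both stimuli, and Tgfb2, which fell late with both. Each is the 250 bases before the transcription start from RefSeq, build GRCm38.p6, 5′ to 3′. Capitals mark matches to the TATA box (TATAAA), the GC box (GGGCGG) or the CCAAT box (CCAAT) on either strand.
Inhba (chr13:16011601-16011850, + strand): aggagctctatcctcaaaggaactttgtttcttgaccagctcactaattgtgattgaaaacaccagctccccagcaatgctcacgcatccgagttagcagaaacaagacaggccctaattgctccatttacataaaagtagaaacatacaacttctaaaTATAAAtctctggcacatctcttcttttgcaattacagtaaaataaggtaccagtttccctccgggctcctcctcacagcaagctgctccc
Tgfb1 (chr7:25686752-25687001, + strand): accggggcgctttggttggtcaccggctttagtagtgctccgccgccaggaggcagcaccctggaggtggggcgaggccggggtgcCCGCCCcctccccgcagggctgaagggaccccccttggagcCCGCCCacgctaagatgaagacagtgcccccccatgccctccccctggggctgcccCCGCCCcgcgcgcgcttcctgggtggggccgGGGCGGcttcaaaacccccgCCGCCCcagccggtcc
Tgfbr1 (chr4:47352972-47353221, + strand): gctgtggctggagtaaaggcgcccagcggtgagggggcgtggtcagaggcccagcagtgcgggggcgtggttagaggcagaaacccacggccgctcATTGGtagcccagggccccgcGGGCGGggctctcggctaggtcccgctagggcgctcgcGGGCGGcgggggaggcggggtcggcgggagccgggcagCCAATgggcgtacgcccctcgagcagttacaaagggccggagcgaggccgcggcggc
Tgfb2 (chr1:186705990-186706239, - strand): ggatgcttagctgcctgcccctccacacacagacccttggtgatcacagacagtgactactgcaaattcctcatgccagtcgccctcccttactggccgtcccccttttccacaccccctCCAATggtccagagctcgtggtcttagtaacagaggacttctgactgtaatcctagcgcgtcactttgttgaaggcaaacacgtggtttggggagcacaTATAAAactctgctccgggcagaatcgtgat

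The GC content of these windows was 43.2% for Inhba, 75.2% for Tgfb1, 74.8% for Tgfbr1 and 53.6% for Tgfb2, beside a median of 52.4% over 32851 promoter windows of the table. Tgfb1 had 5 GC boxes before the start and Tgfbr1 had 2 GC boxes and 2 CCAAT boxes, with no TATA box in either window. Tgfb2 had a TATA box whose first base lies 31 bases before the start, and Inhba one that begins 91 bases before it. Over all windows of 300 bases (the 250 and the first 50 transcribed), 13.6% held the TATA box, 35.7% the GC box and 37.4% the CCAAT box. The letters of the CRE (TGACGTCA, in 1.79% of windows), the AP-1 element (TGANTCA, 7.81%), an E2F element (TTTNGCGC, 1.38%), the CAGA box (AGCCAGACA, 0.387%) and the CArG box (1.63%) were in none of the members' windows that were searched. The SMAD palindrome (GTCTAGAC, 0.213% of windows) was in 1 of them, across the start of Smad6, from 4 bases before it to 4 after it. It is shown with 10 bases on each side, in capitals, since Smad6 is a feedback gene of the SMADs.
Smad6 start site (chr9:64022046-64022073, - strand): ccgccaaagtGTCTAGACtggcatatga

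No 2 matches before the starts overlapped. Promoter entries were matched by symbol for 6 members, which also include Tgfbr2 and Smad6, and the Tgfbr1 sequence is the first of 2 entries. The promoters of Fst, Tgfb3 and Smad7 were not searched, so whether they hold these motifs, the SMAD palindrome included, is not known from here. The Smad6 window had 66.8% GC with GC boxes before the start, and that of Tgfbr2 58.4% GC with CCAAT boxes. Neither held a TATA box, and neither gene rose with E2F1. In serum Smad6 rose at 6 and 12 h, and Tgfbr2 fell. A match is a description of the letters and not of binding, and no position was tested against the RNA values. The Tgfb2 window lies over an exon of Gm29491 on the opposite strand. Exons of Tgfb2, Tgfb3 (Gm37804, Gm48008) and Fst (Gm47040) overlap genes on the opposite strand, and whether counting used strand is not given in the sources used here, so reads of these partners could be counted among them.

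Inhibitory SMADs answered serum at different speeds. Smad7 encodes the SMAD that recruits ubiquitin ligases to activated TGF-beta receptors. It was 417 and 442 in the EV line at 0 h, 5627 and 5533 at 2 h of serum, 3602 and 4047 at 6 h, and 2570 and 2074 at 12 h. All 6 serum libraries were above all libraries without serum, which ran from 325 to 734. Its log2 change was 3.70 ± 0.12 at 2 h (13.0-fold, limma adjusted p = 2.65e-14), 3.15 ± 0.12 at 6 h (8.88-fold) and 2.42 ± 0.12 at 12 h (5.37-fold). Smad6 (chr9:63953076-64022059, - strand) encodes the SMAD that blocks mainly BMP receptor signals. It was 484 and 380 in the EV line at 0 h and 448 and 562 at 2 h of serum, a difference of 0.23 ± 0.21 that did not pass (0.34) and was -0.15 with equal totals. At 6 h of serum it was 1033 and 1782 and at 12 h 1002 and 1045, above all libraries without serum (highest 534), with log2 changes of 1.66 ± 0.21 (limma adjusted p = 1.34e-06) and 1.25 ± 0.21 (4e-05). Smad6 rose between 2 and 6 h of serum (1.43 ± 0.21, limma adjusted p = 1.87e-05), as did Tgfbr2 with equal totals only, a step in which Smad7 fell by 0.55 ± 0.12. Within libraries, the ratio of Smad7 to Smad6 per kilobase of exon was 0.611 and 0.825 in the EV line at 0 h, between 6.98 and 8.90 at 2 h of serum, and between 1.41 and 1.82 at 12 h.

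With E2F1 neither inhibitory SMAD rose. Smad7 was 664 and 658 at 0 h, 592 and 597 at 2 h, 609 and 734 at 6 h, and 522 and 469 at 12 h. The difference from 0 h was 0.02 ± 0.12 at 6 h (95% interval -0.23 to 0.27, and -0.10 with equal totals). Smad7 fell by 0.42 ± 0.12 at 12 h (limma adjusted p = 0.00537), a call lost without E2F1 12 h replicate 2 (-0.34). The EV line with doxycycline had 342 and 325 counts at 12 h, a change of -0.36 ± 0.12 that did not pass (0.0999), and the difference between the lines was -0.05 ± 0.17 (95% interval -0.41 to 0.30). Smad6 was 373 and 435 at 0 h, 422 and 382 at 2 h, 341 and 452 at 6 h, and 297 and 280 at 12 h. Its change was -0.04 ± 0.21 at 6 h and -0.48 ± 0.21 at 12 h (limma adjusted p = 0.0527), and the 12 h value passed with equal totals (-0.54).

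Doxycycline without E2F1 was the control for the inducer. Tgfb1 was the member that rose in the EV line at 2 h, to 1252 and 1307 (log2 change 0.72 ± 0.15, limma adjusted p = 0.00799), and at 6 h it was 1006 and 1127, a change of 0.45 ± 0.15 that did not pass (0.64). The 2 h call was lost without EV 0 h replicate 1 (0.63) or EV 2 h replicate 2 (0.69). Tgfb2 read 0.76 ± 0.31 higher at 2 h and did not pass (0.14). The EV 2 h libraries are those that stood between the lines over the 16 genes described above. At 6 h Fst was 0.89 ± 0.26 higher and did not pass (0.557), but without EV 0 h replicate 1 it was 1.34 and passed.

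The difference between the lines in their response to doxycycline, the test that takes the EV line into account, passed for no member at 2 h (1 with an unadjusted p under 0.05, Inhba at -0.81 ± 0.25), where 0.143% of all genes passed. At 6 h it passed for 4 members against a background of 34.5%. Tgfb1 (0.88 ± 0.21, limma adjusted p = 0.00359) and Tgfbr1 (1.19 ± 0.18, 4.48e-05) were higher with E2F1, and Inhba (-0.84 ± 0.25, 0.015) and Tgfb3 (-1.16 ± 0.16, 2.63e-05) lower. At 12 h it passed for 7 against 50.5%. Tgfb1 (0.83 ± 0.21) and Tgfbr1 (0.64 ± 0.18) were again higher, and Inhba (-0.74 ± 0.25), Fst (-1.16 ± 0.37), Tgfb2 (-1.51 ± 0.43), Tgfb3 (-1.29 ± 0.16) and Tgfbr2 (-0.56 ± 0.20) lower. Leaving out single libraries ended the calls of Inhba at 6 h (-0.57 without E2F1 6 h replicate 2, -0.76 without EV 6 h replicate 2) and at 12 h (-0.44 without E2F1 12 h replicate 2, -0.60 without EV 12 h replicate 1, -0.69 and -0.70 without replicate 1 of E2F1 or EV 0 h). They also ended that of Fst (-0.71 without EV 0 h replicate 2, -0.87 without EV 12 h replicate 1, -0.97 and -1.05 without E2F1 0 h replicate 2 or 12 h replicate 1) and of Tgfbr2 (-0.38 without E2F1 0 h replicate 1, -0.49, -0.52 and -0.55 without EV 12 h replicate 1, E2F1 12 h replicate 2 or EV 0 h replicate 2). The calls of Tgfb1, Tgfb3 and Tgfbr1 passed in each of these fits at both times. Tgfb2 at 6 h (-1.001 ± 0.43, 0.0824) passed without E2F1 or EV 6 h replicate 2 (-1.45 and -1.50).

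E2F1 and serum were then compared, as the difference between their changes from 0 h of their own line. The sides also differ in line and in doxycycline, and the EV doxycycline response is not taken into account. Line, inducer and stimulus cannot be told apart here. At 6 h the difference passed for 6 members, where 57.9% of all genes did, and at 12 h for 6, where 48.8% did. As E2F1 minus serum on the log2 scale, Inhba was at -4.82 ± 0.25 at 6 h and -3.32 ± 0.25 at 12 h. Smad7 was at -3.13 ± 0.17 and -2.84 ± 0.17, and Smad6 at -1.70 ± 0.29 and -1.73 ± 0.29. Tgfbr2 was higher with E2F1 by 1.56 ± 0.20 and 1.24 ± 0.20, and Tgfbr1 by 0.99 ± 0.18 and 0.56 ± 0.18. Tgfb3 was at -0.97 ± 0.16 at 6 h, and at 12 h the difference of -0.39 ± 0.16 did not pass (limma adjusted p = 0.058, though it did under quantile normalization). Fst was at -1.06 ± 0.37 at 12 h. The Tgfb1 difference did not pass at either time: it was -0.36 ± 0.21 at 6 h (95% interval -0.80 to 0.09) and 0.07 ± 0.21 at 12 h (95% interval -0.37 to 0.52), and that of Tgfb2 at 12 h was -0.83 ± 0.43 (95% interval -1.74 to 0.08) and passed under quantile normalization (-1.17). The 12 h call of Tgfbr1 was lost without EV 0 h replicate 1 (0.49) or serum 12 h replicate 2 (0.44). That of Fst was lost without EV 0 h replicate 2 (-0.61), E2F1 0 h replicate 2 (-0.87), E2F1 12 h replicate 1 (-0.95) or serum 12 h replicate 2 (-0.99). The Tgfb1 difference at 6 h passed without E2F1 0 h replicate 2 (-0.61).

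Before any stimulus the starved lines already differed in 5 of the 9 genes, where 15% of all genes passed. Besides Inhba, Smad7 (0.62 ± 0.12, limma adjusted p = 0.00197) and Tgfb2 (1.10 ± 0.31, 0.0222) were higher in the E2F1 line, and Tgfb3 (-0.47 ± 0.12, 0.0112) and Tgfbr2 (-0.69 ± 0.14, 0.00301) lower. Without single 0 h libraries the Smad7 call stayed. That of Inhba was lost in 2 of 4 such fits (0.64 and 0.65, without replicate 1 of the E2F1 or EV line), that of Tgfb3 in 2 (-0.43 without E2F1 replicate 2, -0.42 without EV replicate 1), that of Tgfbr2 in 1 (-0.52 without E2F1 replicate 2) and that of Tgfb2 in all 4 (1.02 to 1.19). Fst was 0.78 ± 0.26 higher and did not pass (0.0522), and passed without EV 0 h replicate 1 (1.23) and with equal totals (0.82).

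The steps between later times were tested as well. From 6 to 12 h of E2F1, 2 members fell, where 35.3% of all genes passed: Tgfbr1 by 0.51 ± 0.13 (limma adjusted p = 0.00444) and Smad7 by 0.43 ± 0.12 (0.00898). The Tgfbr1 step did not pass without E2F1 6 h replicate 1 (-0.43), nor the Smad7 step without E2F1 6 h replicate 2 (-0.30) or 12 h replicate 2 (-0.36). Smad7 had not passed against 0 h at 6 h of E2F1, and whether its step was the return of a smaller or earlier rise was not tested. In the EV line with doxycycline Smad7 was also lower at 12 h (342 and 325) than at 6 h (439 and 474), a step that was not tested. From 2 to 6 h of serum, 6 members fell and 1 rose, where 48.5% of all genes passed. Inhba, Tgfb1, Tgfb2, Tgfb3, Tgfbr1 and Smad7 fell, with log2 changes of -1.90 ± 0.31 for Tgfb2 and -1.03 ± 0.13 for Tgfbr1. From 6 to 12 h of serum, 4 fell, where 39.9% of all genes passed: Inhba, Tgfb1 (by 0.80 ± 0.15), Tgfb3 (by 0.71 ± 0.12) and Smad7 (by 0.73 ± 0.12).

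Ordered by group mean, neighbouring groups were often not separated by their replicates. For Inhba the 3 serum groups, in the order 2, 6 and 12 h, then the E2F1 line at 0 h, each stood apart from the next, and 5 of the 10 neighbouring pairs, all lower down, overlapped. For Smad7 the 3 serum groups stood apart in the same order and 4 of 10 pairs overlapped, and Tgfb3 also had 4. Tgfb2 had 5 overlapping pairs, Tgfb1, Tgfbr1 and Tgfbr2 had 6 each, Fst had 7 and Smad6 had 8. The groups with the highest means were serum 2 h for Inhba, Tgfb1, Tgfb3 and Smad7, serum 6 h for Smad6, E2F1 2 h for Tgfb2, E2F1 6 h for Tgfbr1, and EV doxycycline 12 h for Fst and Tgfbr2. The group means spanned 7.91 log2 units for Inhba, 4.06 for Smad7 and 2.97 for Tgfb1, and 1.47 for Fst, the narrowest.

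Other genes of the pathway were read from 5 lists drawn from general knowledge, some of whose genes also answer other signals. Over all genes, 70.9% passed at 2 h of serum, 51.7% at 6 h of E2F1 and 61.5% at 12 h of E2F1, and the line difference, which takes the doxycycline response of the EV line into account, passed for 34.5% at 6 h and 50.5% at 12 h. The counts of each list are to be read beside these shares. Of the receptors and co-receptors, 7 of 11 were in the table. Serum at 2 h raised 3 and lowered 3, with a list median of 0.03, equal to that of all genes (2 up and 4 down with equal totals). Acvr1, a type I receptor for BMPs, rose by 1.63 and Bmpr2, a BMP type II receptor, by 1.31. Tgfbr3, the co-receptor betaglycan, fell by 2.55 and Acvr2b, an activin type II receptor, by 2.00. E2F1 at 6 h raised 6 of the 7 (median 0.63), or 4 of 7 with 1 down under equal totals or quantile normalization, among them Acvr2b by 1.03, Bmpr1a by 0.95 and Acvr2a, the other activin type II receptor, by 0.81. At 12 h of E2F1 3 were still higher and Tgfbr3 fell by 0.55. By the line difference 4 were higher and none lower at 6 h, with Acvr2b, Bmpr1a and Acvr2a among the 4, and at 12 h 1 was higher (Bmpr1a, 0.56) and 2 lower, among them Tgfbr3 (-0.65).

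Signalling SMADs and their nuclear and ubiquitin regulators numbered 17 of 18 in the table. At 2 h of serum 13 rose and none fell (median 0.88), against 9 up and 4 down with equal totals and 11 up and 4 down with quantile normalization. The leading rises were those of Pmepa1, an inhibitor that sequesters receptor SMADs, by 5.56, Smad9, a BMP-responsive SMAD, by 3.48, and Skil, the SMAD corepressor SnoN, by 3.37. At 6 h of E2F1 13 rose and 1 fell (median 0.64), and with either other scaling 12 rose. Bambi, a pseudoreceptor that blocks the type I receptors, rose by 2.52, Smad9 by 2.38 and Pmepa1 by 1.56, and the corepressor Tgif1 fell by 0.68. At 12 h of E2F1 10 rose and 3 fell, with Bambi at 2.05, Smad9 at 1.80, Pmepa1 at 1.07 and Smad3 at -0.79. By the line difference 10 rose and 1 fell at 6 h, against 5 that rose and 3 that fell at 12 h. Bambi stood at 3.34 there, and it fell by 1.29 in the EV line at 12 h of doxycycline, Smad9 at 1.41 and Smad3 at -0.90, and Pmepa1 (0.91, limma adjusted p = 0.0627) did not pass.

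Extracellular partners, 13 of 25 in the table, divided in serum, and with E2F1 all that passed were falls. At 2 h of serum 6 rose and 5 fell (median 0.34, which was -0.03 with equal totals and -0.23 with quantile normalization). Thbs1, an activator of latent TGF-beta, rose by 3.82 and Ltbp2, of the latent TGF-beta binding protein family, by 3.66, while Inha, the inhibin alpha chain that pairs with the Inhba product, fell by 2.38 and the BMP antagonist gene Chrd by 0.99. At 6 h of E2F1 3 fell and none rose (6 fell under either other scaling), among them Fstl3 at -0.55 and Bmp1, a procollagen protease gene, at -0.31. At 12 h of E2F1 8 fell and none rose (median -0.47), led by Thbs1 at -1.39, Ltbp2 at -1.24 and Fstl3, another follistatin-type activin antagonist, at -1.06. By the line difference 1 was lower at 6 h (Fstl3, -0.85) and 6 were lower at 12 h, among them Fstl3 (-1.26) and Ltbp2 (-1.17), and none was higher. That of Thbs1 at 12 h (-0.51, limma adjusted p = 0.326) and that of Bmp1 at 6 h (-0.16, 0.524) did not pass.

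Genes known as SMAD2/3 targets, 17 of 20 in the table, rose in 12 cases and fell in 1 at 2 h of serum (median 1.94). Among them, Ccn2 (CTGF) rose by 6.35 and Timp1 by 3.87, and the repressor gene Snai2 fell by 2.77. With E2F1 at 6 h 4 rose and 1 fell (median -0.07), against 1 up and 4 down with quantile normalization and 4 up and 5 down with equal totals. Cdkn1a, the cyclin-dependent kinase inhibitor p21 and also a target of other pathways, rose by 2.11, Fhl2 by 0.46 and Timp1 by 0.42, and the collagen gene Col3a1 fell by 0.47. At 12 h of E2F1 2 rose and 8 fell (median -0.40): Cdkn1a rose by 2.32 and Timp1 by 0.78, and, among the falls, Acta2, the smooth muscle actin gene, fell by 1.02 and the collagen gene Col1a1 by 0.96. Acta2 also fell in the EV line at 12 h of doxycycline, by 1.30, and its line difference of 0.28 did not pass (limma adjusted p = 0.242). By the line difference 2 of the list were higher and 1 lower at 6 h, where Cdkn1a (1.97) passed and Fhl2 (0.36), Timp1 (0.34) and Col3a1 (-0.40) did not. At 12 h 3 were higher and 5 lower, among them Cdkn1a (2.04), Timp1 (0.83) and Col1a1 (-0.92). Of the genes known as SMAD1/5 targets, 6 of 10 were in the table. All 6 rose at 2 h of serum (median 1.94), with Id1 at 3.41, Id2 at 2.39 and Id3 at 2.10. In the E2F1 line Atoh8 rose by 0.79 at 6 h, the others did not pass, and at 12 h none of the 6 passed. With either other scaling 1 rose and 1 fell at 6 h and 1 fell at 12 h. By the line difference 1 was higher at 6 h (Atoh8, 0.87) and 1 lower at 12 h.

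**Figure D4:**
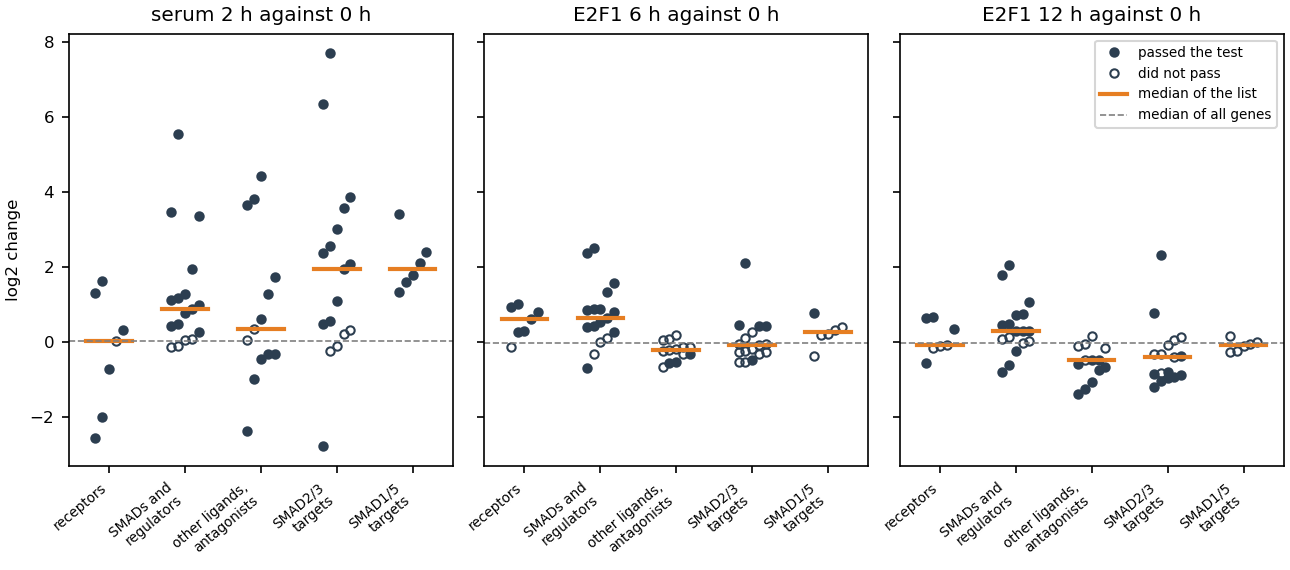
Log2 change of each pathway gene (points, filled where the adjusted p was at most 0.05) by list, for serum 2 h, E2F1 6 h and E2F1 12 h against 0 h of the same line. Orange bars are list medians and the dashed line is the median of all genes. SMAD2/3 targets have a median of 1.94 at 2 h of serum and of -0.40 at 12 h of E2F1, and the other ligands and antagonists reach -0.47 at 12 h of E2F1.

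The genes whose profile was most like that of a member were found by Pearson r over the 11 group means of log2 values, for the 3 members with the widest range. Closest to Inhba were Ywhag (0.988), Pqlc1 (0.987) and Ptgs2 (0.986), the gene of cyclooxygenase COX-2. Among the closest to Smad7 were Selenot (0.986) and Srfbp1 (0.985). Closest to Tgfb1 were Myo9b (0.987), Sec24b (0.980) and Rai1 (0.980). Ranges differed: Ptgs2 spanned 6.78 log2 units and Selenot 0.89, so a high r can join genes that move by very different amounts. The 11 means come from libraries of only 2 lines that share their 0 h groups, and r is given as a description.

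The authors' deposited table of 2 h serum changes, which listed 1268 genes, held 4 members: Inhba at a log2 fold change of 7.52, Smad7 at 3.71, Tgfb1 at 2.98 and Tgfbr2 at -2.01. At 6 and 12 h of serum the authors' deposited tables held Inhba (3.92 and 2.25) and Smad7 (3.16 and 2.45). The authors' deposited tables for doxycycline listed no member in either line. The smallest member change listed anywhere was that of Tgfbr2 at -2.01, and Tgfb1 at 6 h of serum, which rose here, was not listed. The rule for listing a gene was not examined, so absence from these tables is not read as absence of change.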

How the data were processed

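RNA was measured in 22 NIH/3T3 libraries, grouped by line, stimulus and time from the labels. The members and gene lists were chosen with earlier results of these data known. The expression table holds normalized counts that the authors deposited as whole numbers for each gene and library, treated here as a score and not as raw counts. The submitters' processing notes name FastQC, Trimmomatic, HISAT2, featureCounts, DESeq2 and the build mm10, without versions. The strandedness of counting and the scaling are not given in the sources used here. Separate tables hold log2 fold changes that the authors deposited for listed genes. They also hold adjusted p-values that the authors deposited. The serum tables have a 0 h group of their own name, read here as EV 0 h.

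The transform was log2(value + 1), and limma 3.58.1 (R 4.3.3) fitted a mean for each of 11 groups over 22 libraries, 11 residual degrees of freedom, a mean-variance trend, Benjamini-Hochberg adjustment over 11208 genes and a threshold of 0.05. A minimum of 10 in 2 libraries removed 0 genes. All members in the table, E2f1, the closest profiles of 3 members, and up to 3 rises and 3 falls per list at 2 h of serum and 6 and 12 h of E2F1 were named. A few genes that this rule named are not reported here. Positions and exon lengths are from GENCODE M21 on GRCm38, which holds 10977 of the 11208 versioned identifiers. Promoters are RefSeq's. The core promoter motifs were added after the others had been searched. Alternatives were quantile normalization, equal totals, no filter, a pseudocount of 8, a replicate block, only the groups compared, a 2-fold limit, EV doxycycline libraries as the serum baseline, each library left out and, chosen after seeing the data, a fit without the 2 h doxycycline libraries. The code was tested on simulated data. Totals ran from 34014608 to 46057140 per library and the lowest gene mean was 99.6, both in normalized counts. Sequencing depth cannot be read from these values. Tables were made with Python 3.11.15, pandas 2.3.3 and numpy 2.4.6, and plots with matplotlib 3.10.9.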

Additional observations from a re-analysis of the deposited data

Results flagged for a closer look

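For some members the response to doxycycline differed between the E2F1 and the EV line by the test of the difference itself (limma, 2 libraries in each of the 4 groups). The values are E2F1 response minus EV response on the log2 scale. At 6 h these were Inhba (-0.84), Tgfb1 (0.88), Tgfb3 (-1.16) and Tgfbr1 (1.19). At 12 h they were Inhba (-0.74), Fst (-1.16), Tgfb1 (0.83), Tgfb2 (-1.51), Tgfb3 (-1.29), Tgfbr1 (0.64) and Tgfbr2 (-0.56). Since 34.5% of all genes passed this test at 6 h and 50.5% at 12 h, such a difference is common in these data. The Fst value at 12 h combines a rise in the EV line with doxycycline (1.47) and a change in the E2F1 line that did not pass (0.31).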

How the results depend on the processing

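Of 79 member changes that passed the test, 33 are under 2-fold and 23 kept their sign but lost the call under some other setting. 1 further called change reversed and lost its call: Fst at 12 h of serum (-0.10 against the EV doxycycline libraries of the same time). Of the uncalled values printed above, those that changed sign were Smad7 at 6 h of E2F1 (-0.035 with quantile normalization, -0.10 with equal totals, -0.12 to 0.15 with a library left out), Smad6 at 2 h of serum (-0.15 with equal totals, -0.075 with the doxycycline baseline), Smad6 at 6 h of E2F1 (-0.24 to 0.17), Tgfb3 at 6 h of serum (-0.31 to 0.17), the Tgfb1 difference between E2F1 and serum at 12 h (-0.18 to 0.33) the Smad7 line difference at 12 h (-0.13 to 0.024) and Tgfbr2 in serum from 2 to 6 h (-0.022 to 0.38) and from 6 to 12 h (-0.12 to 0.29), the last 6 with a library left out. Further uncalled member values near 0, not printed, also changed sign. With only the groups compared, 2 members passed at 2 h of E2F1 and 0 at 12 h of doxycycline in the EV line. With a 2-fold limit, the members passing were 3 at 12 h of E2F1, 0 at 2 h of EV doxycycline, 5 at 12 h of serum, 2 and 3 for the line difference at 6 and 12 h, 1 between the lines at 0 h, 0 for E2F1 12 against 6 h and 1 for serum 12 against 6 h. With a library left out, the members passing ranged from 3 to 4 between the lines at 0 h, from 1 to 2 for E2F1 12 against 6 h, from 0 to 2, 0 to 1 and 0 to 1 for EV doxycycline at 2, 6 and 12 h, and from 4 to 7 for the line difference at 12 h, and the lone library of a group is then assumed to vary like the other groups. Replicate numbers did not pair the libraries throughout (correlation of same-numbered deviations over 55 pairs of groups, median 0.03, -0.28 to 0.46). Some groups may still share a replicate effect, since 18 of 55 pairs were over 0.1, with 3 of 6 in the E2F1 line and 8 of 21 in the EV line. The replicate block gave 6 members between the lines at 0 h instead of 5, with Fst at 0.78 added, and the same number in the other 17 comparisons. Counts over all genes moved most where few passed. E2F1 2 h gave 208, against 26 to 120 with a library left out, 596 with only the groups compared and 330 with quantile normalization. EV doxycycline gave 824, 15 and 467 at 2, 6 and 12 h, against 157 to 505, 8 to 30 and 26 to 803 with a library left out and 400, 1 and 77 with only the groups compared. The lines at 0 h gave 1684, against 652 with only the groups compared and 684 to 1236 with a library left out, and E2F1 12 against 6 h gave 3953, against 2644 to 2786. The line difference at 2 h gave 16, against 33 with the replicate block, 45 with only the groups compared, 51 with quantile normalization and 2 to 22 with a library left out. A 2-fold limit left 42, 1115 and 1802 for E2F1 at 2, 6 and 12 h (main 208, 5799 and 6898), 101, 6 and 170 for EV doxycycline, 3150, 2508 and 2150 for serum (main 7952, 7563 and 7367), 1157 and 2119 for the line difference at 6 and 12 h (main 3866 and 5665), 2867 and 2026 for E2F1 minus serum (main 6493 and 5471), 208 for the lines at 0 h, and 428, 1173 and 840 for E2F1 12 against 6 h, serum 6 against 2 h and serum 12 against 6 h (main 3953, 5440 and 4472). With equal totals the share of calls that were rises went from 52.8 to 30.7% at 2 h of serum, 54.1 to 37.9% at 6 h of serum, 55.7 to 41.5% at 6 h of E2F1 (41% with quantile normalization), 64.5 to 48.3% for the line difference at 6 h (44.5% with quantile normalization), 59 to 72% for the lines at 0 h, 50 to 69.5% for serum 6 against 2 h 48.4 to 69.6% for serum 12 against 6 h, 42.7 to 54.6% for E2F1 12 against 6 h and 37.5 to 25% for the line difference at 2 h, and with quantile normalization from 54 to 43.5% for the line difference at 12 h. Without the 2 h doxycycline libraries, no member count moved by over 1.5 times. The lowest gene mean was 99.6 in normalized counts, and whether depth or the spread between 2 replicates limits these values more was not tested.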
